A study of Mus musculus with 4 samples.

Results

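The genes described here were Insr, Igf1r, Irs1, Irs2, Akt2, Pik3r1, Foxo1 and Slc2a4 of the insulin signaling pathway, and Trib1 and Trib2, the relatives of the stress gene Trib3. They were chosen by name, and the 18 probes whose accession maps to them were taken from 55681 probes on the array. All 10 genes had at least 1 probe that could be compared, and 17 of the 18 probes were compared. The data were microarray profiles of brown adipose tissue (BAT) from 4 male transgenic (Tg) mice. All 4 mice carried maP2::Fv2E-PERK, in which the aP2 (Fabp4) promoter drives a fusion of the kinase domain of PERK with a domain that pairs when a synthetic ligand binds. Pairing switches the kinase on, and it phosphorylates eIF2α and starts the integrated stress response (ISR). AP20187 (AP), the ligand, was injected into 2 mice, and the vehicle of ethanol, PEG-400 and Tween-20 into the other 2. BAT was collected 12 h after the injection, from mice 8 weeks of age. The dose of AP is 1 ng/g in the labels and 0.05 mg/kg in the study's legend, so the dose is uncertain. The aP2 promoter is also active in macrophages, and no mice without the transgene were profiled, so an effect of AP itself and an effect through Fv2E-PERK cannot be told apart.

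Insulin binds its receptor, encoded by Insr, on the surface of fat cells. The receptor phosphorylates the docking proteins IRS1 and IRS2, which recruit PI 3-kinase through its regulatory subunit, encoded by Pik3r1. The lipid made by PI 3-kinase activates AKT2, which brings the glucose transporter GLUT4 (Slc2a4) to the cell surface and keeps the transcription factor FOXO1 out of the nucleus. In many tissues FOXO1 in turn raises transcription of Irs2 and Insr when insulin is low. Tribbles proteins are pseudokinases. TRIB1 and TRIB2 pass C/EBPα to the ubiquitin ligase COP1, and TRIB3 has been described as a binder of AKT.

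Of the members, Irs1 and Irs2 shared a feature of sequence in front of the gene, and their windows are shown because Irs2 had the largest difference with AP of the 10 genes. RefSeq promoter windows of build GRCm38.p6 were found for 7 of the 10 genes and not for Insr, Slc2a4 and Trib1. The 250 bases before the start of transcription were searched on both strands for GTAAACA (FoxO site), CAAAACA (insulin response element), TGATGNAA (C/EBP-ATF composite), TGACGTCA (cAMP response element) and CACGTG (E-box). In the sequences, on the strand of the gene and 5′ to 3′, capitals mark the matches, and TGTTTTG is CAAAACA on the other strand. The Irs2 window lies at chr8:11008930-11009179 and the Irs1 window at chr1:82291440-82291689, both on the minus strand.
Irs2: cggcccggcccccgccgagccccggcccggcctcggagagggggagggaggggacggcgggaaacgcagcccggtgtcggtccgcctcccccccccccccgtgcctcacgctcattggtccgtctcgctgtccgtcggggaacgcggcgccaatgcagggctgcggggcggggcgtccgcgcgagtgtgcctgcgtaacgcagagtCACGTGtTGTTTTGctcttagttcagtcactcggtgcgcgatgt
Irs1: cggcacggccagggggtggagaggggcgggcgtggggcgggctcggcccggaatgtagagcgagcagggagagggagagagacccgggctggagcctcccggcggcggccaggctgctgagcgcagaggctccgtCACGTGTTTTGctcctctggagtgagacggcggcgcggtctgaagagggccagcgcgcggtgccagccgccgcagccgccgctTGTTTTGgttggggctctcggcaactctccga

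In Irs2 the E-box begins at base -44 from the start of transcription and TGTTTTG at base -37, with a single base between them. In Irs1 the E-box begins at base -115 and the first TGTTTTG at base -111, so the 2 motifs overlap, and a second TGTTTTG begins at base -32. Of 32851 windows of the same length, 6.02% hold an E-box and 5.56% hold CAAAACA. An E-box and CAAAACA that overlap or lie at most 10 bases apart were found in 14 windows, or 0.0426%, a count made after the pair had been seen in these genes. The FoxO site is in 3.17%, the C/EBP-ATF composite in 3.45% and the cAMP response element in 1.55% of windows. Among the members, the letters GTAAACA and TGACGTCA were not found, and TGATGNAA was found only in 1 of the 4 Akt2 windows. These are matches of letters and say nothing of binding, and the name of a motif does not say which factors bind it.

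Each mouse had its own one-color array. The authors deposited the brightness of each spot, and here a level is log2 of that brightness minus log2 of the 75th percentile of the array, so that 0 is the brightness at that percentile and a step of 1 is a 2-fold change. Between 46.4% and 49% of spots were well above background on each array, and 0 were saturated. All 4 arrays lay on 1 slide and were read in 1 scan, but at different positions, which cannot be told apart from the treatment. Skeletal muscle genes stood apart between mice and not between groups: the summed level of 12 muscle markers was 5.94 and 10.15 with the vehicle and 9.49 and 8.63 with AP, and all 12 were highest in vehicle mouse 2. All 9 measurable leukocyte markers of 12 were highest in vehicle mouse 2 too, with a summed level of 7.37 against 5.68 to 5.91 in the others. The 8 measurable macrophage markers of 10 summed to 5.08 and 5.35 with the vehicle and to 4.66 and 4.71 with AP, and 6 of 10 white adipose markers to 5.62 and 5.81 against 5.18 and 5.31. Both sums were thus lower with AP, led by Itgam and Retn, while Cd68 and Cd163 were not compared. The groups overlapped in the median deviation of the markers from their own means. For macrophage markers it was -0.26 and 0.57 with the vehicle and 0.05 and -0.29 with AP. For white adipose markers it was 0.10 and -0.07 against 0.03 and -0.20. The part of these cells in the results was not tested. The 12 brown adipocyte markers, Ucp1 and Cidea among them, were all measurable, with a summed level of 12.53 to 13.12, as the labelled tissue would have. The sum hides single markers. Elovl3 was 6.08 and -1.07 with the vehicle and 3.52 and 5.76 with AP. Adrb3 was lower with AP, at 5.33 and 5.77 against 6.80 and 6.70 (adjusted p = 0.80, limma). The groups did not overlap for 1 marker that was higher and 2 that were lower, beside 20.1% and 17.3% of named genes. In whole tissue, fewer cells of a type and less RNA per cell cannot be told apart.

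With AP, Irs2 was higher and Pik3r1 was lower in both mice, each by about 2-fold, while Igf1r and Akt2 differed least. Over all 24975 probes compared, 0 passed an adjusted p of 0.05 (limma, Benjamini-Hochberg), so the share called was 0% of the 12792 named genes, and 0 of the 10 members were called. Before adjustment, 1 member was higher and 1 lower at a limma p under 0.05, against 3.78% and 2.26% of named genes. By the methods' t-test, which does not borrow the spread of other genes, 1 member was under 0.05 before adjustment and 0 after. Over all probes, 1478 of 24973 were under 0.05 by that test before adjustment and 0 after. The groups did not overlap for 4 of 10 members, 2 higher and 2 lower with AP, a share near the 37.4% of named genes for which they did not. The median log2 fold change of the 10 was -0.01, and that of all named genes 0.01. Exact two-sided permutation of 4 mice gives a p of 0.333 at the smallest. The sources do not name the litter of each mouse, and the p-values measure only the spread between these samples.

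**Figure D1:**
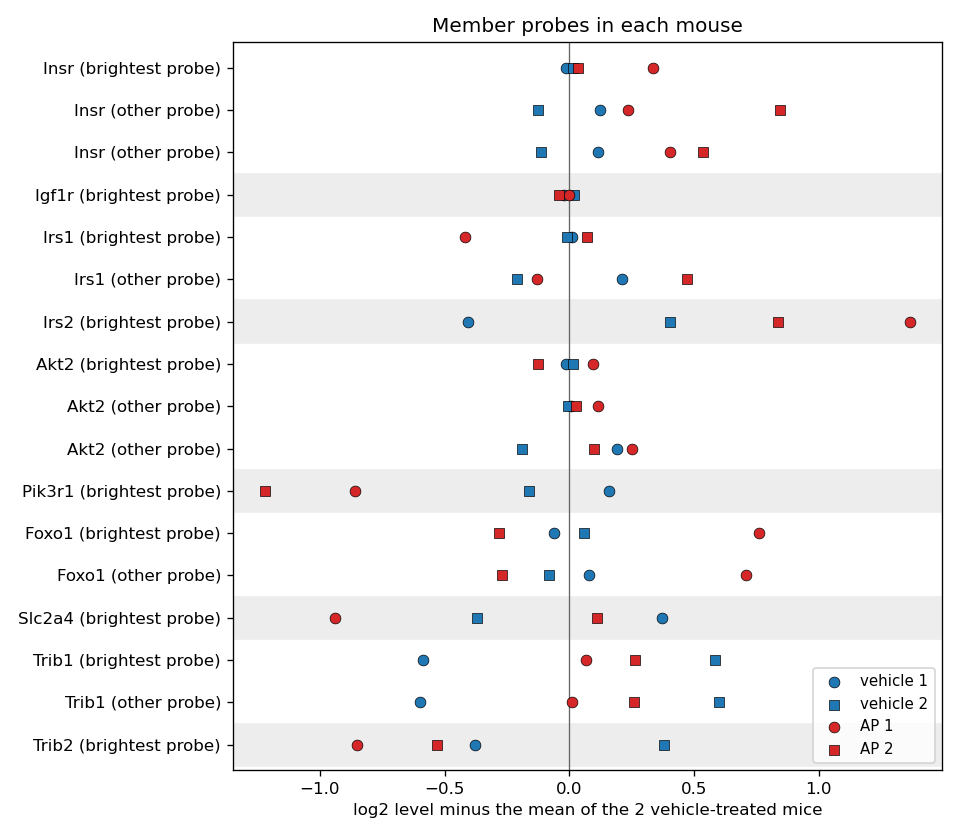
Level of each of the 17 member probes in each of the 4 mice, as the log2 level minus the mean of the 2 vehicle-treated mice (blue: vehicle, red: AP; circle: mouse 1, square: mouse 2). The red points lie to the right of the blue points for Irs2, all 3 Insr probes and 1 Akt2 probe, and to the left for Pik3r1 and Trib2. Of all 24975 probes compared, the groups did not overlap for 38.3%.

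Irs2 encodes the docking protein whose mRNA in liver is known to vary with feeding. Its probe (A_66_P102260) had a level of 1.55 and 2.36 with the vehicle and of 3.32 and 2.79 with AP. The groups did not overlap, though the controls differed from each other by 0.81. The means were 1.96 ± 0.57 (SD, n = 2) and 3.05 ± 0.37, a log2 fold change of 1.1 (standard error 0.37, 95% interval 0.11 to 2.09), or 2.14-fold. The adjusted p was 0.80 (limma). Without vehicle mouse 1, the mouse lowest in Irs2 and in all 12 muscle markers, the log2 fold change was 0.70, and the part of muscle in it was not tested. Without AP mouse 1 it was 0.84. Irs2 and Pik3r1 were the only members to differ by at least 2-fold, which 4.7% of named genes did in either direction.

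Irs1, the other docking protein of fat cells, had groups that overlapped. Its brighter probe (A_52_P175242) had a level of 2.53 and 2.51 with the vehicle and of 2.10 and 2.59 with AP. AP mouse 1 alone was low. The log2 fold change was -0.18 (standard error 0.26, 95% interval -0.86 to 0.50), and that of the dimmer probe (A_52_P171212) was 0.17 (standard error 0.31). The probes thus had opposite signs, both with an interval that includes 0. The intervals of Irs1 and Irs2 overlap, and the difference between the 2 genes was not tested.

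Pik3r1 encodes the regulatory subunit p85α, which stabilizes the catalytic subunit of PI 3-kinase and holds it back until a docking protein binds. Its probe (A_51_P511236) read 1.41 and 1.09 with the vehicle and 0.39 and 0.03 with AP. The groups did not overlap, and the gap within each was small, 0.32 with the vehicle and 0.35 with AP. The means were 1.25 ± 0.23 and 0.21 ± 0.25, a log2 fold change of -1.04 (standard error 0.25, 95% interval -1.71 to -0.37), or 0.485-fold, with an adjusted p of 0.80 (limma). Pik3r1 had the smallest unadjusted limma p of the members, 0.0111, and it was the member under 0.05 by the methods' t-test (unadjusted p = 0.0485). Leaving out any 1 mouse gave values between -1.22 and -0.87. The macrophage and white adipose sums were lower in the same mice, though the median deviations of their markers overlapped between groups. The part of those cells in Pik3r1 was not tested.

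Pik3r3, a related regulatory subunit from the list of other pathway genes, was also lower in both AP-treated mice, at 0.22 and 0.62 against 1.06 and 1.25, a log2 fold change of -0.73 (adjusted p = 0.80, limma). Pik3r2, another such subunit, had overlapping groups: its levels were 0.64 and 1.17 with the vehicle and 1.38 and 0.98 with AP. The catalytic subunit genes Pik3ca and Pik3cb both had a log2 fold change of 0, with levels between -1.12 and -0.95 and between 0.25 and 0.77 over the 4 mice.

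Of the receptors, Insr was slightly higher with AP on each of its probes. The brightest (A_52_P494514) had a level of 0.16 and 0.19 with the vehicle and of 0.51 and 0.21 with AP, so AP mouse 2 lay next to the controls. The second (A_55_P2173927) had -0.73 and -0.96 against -0.44 and -0.31, and the third (A_55_P2172566) -1.69 and -1.94 against -1.58 and -0.97. On all 3 probes the AP-treated mice were the 2 highest, but the log2 fold changes of 0.18, 0.47 and 0.54 had 95% intervals that include 0, the adjusted p was at least 0.80 (limma), and the probes share the same RNA. The first value was 0.03 without AP mouse 1 and 0.34 without AP mouse 2. The mouse that was highest was AP mouse 1 on the first probe and AP mouse 2 on the others. Igf1r, the receptor of insulin-like growth factor 1, had 0.22 and 0.26 with the vehicle and 0.24 and 0.20 after AP. The 4 mice lay within 0.06 of each other, and the log2 fold change was -0.01 (95% interval -0.54 to 0.51).

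Akt2, the AKT isoform by which insulin acts on glucose uptake, had overlapping groups on its brightest probe. That probe (A_55_P2066518) had 6.80 and 6.83 with the vehicle and 6.91 and 6.69 after AP, with a log2 fold change of -0.01 (95% interval -0.57 to 0.55). The log2 fold change was 0.07 on another probe (A_55_P2025228) and 0.17 on the least bright (A_55_P2066523). Akt1 had a log2 fold change of 0, with overlapping groups.

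**Figure D2:**
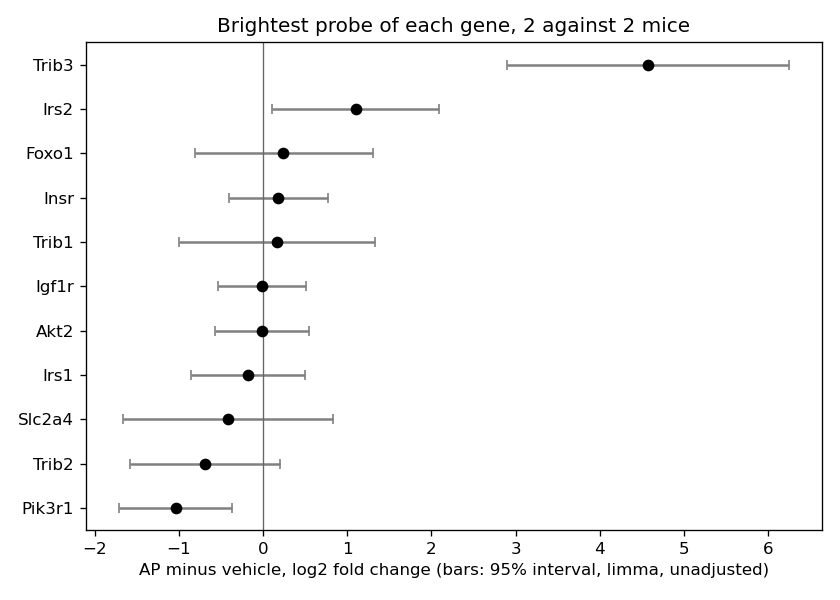
Log2 fold change of AP over vehicle for the brightest probe of each member and of Trib3, with the unadjusted 95% interval of limma from 2 against 2 mice. The intervals of Irs2 and Pik3r1 leave out 0 on opposite sides, and those of the other 8 members include it, whereas Trib3 stands apart at 4.57.

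Foxo1 encodes the transcription factor that AKT holds out of the nucleus, and its values turned on a single mouse. The brighter probe (A_51_P138044) had 3.01 and 3.13 with the vehicle and 3.83 and 2.79 with AP. AP mouse 1 was the highest and AP mouse 2 the lowest of the 4, so the AP-treated mice lay on either side of the controls. The second probe (A_52_P453884) had the same order at the ends, at 2.60 and 2.44 against 3.23 and 2.25. The log2 fold changes were 0.24 (95% interval -0.81 to 1.30) and 0.22. Without AP mouse 1 the first was -0.28, and without AP mouse 2 it was 0.76.

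Slc2a4, which encodes GLUT4, is printed 10 times on each array, so the error of the spots can be set against the spread of the mice. Its levels were 8.35 and 7.61 with the vehicle and 7.04 and 8.09 with AP. The SD over 9 or 10 spots was between 0.06 and 0.084 on each array, and the ranges of spots did not overlap between any 2 mice: the spots of AP mouse 1 lay between 6.84 and 7.13 and those of AP mouse 2 between 7.95 and 8.17. The mice of 1 group thus differed by 0.74 and 1.05, far beyond the error of the spots, while the log2 fold change between groups was -0.42 (standard error 0.47, 95% interval -1.66 to 0.83). Without AP mouse 1 the log2 fold change was 0.11, and without AP mouse 2 it was -0.94. The spots measure error within an array, and error between hybridizations cannot be told apart from the mice.

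**Figure D3:**
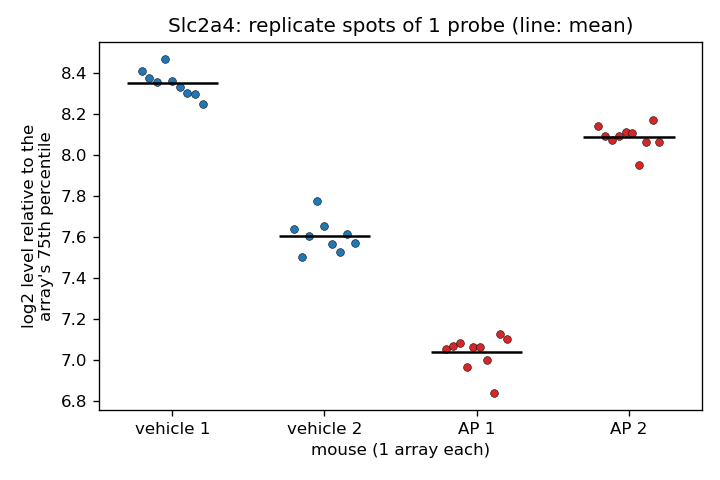
Level of Slc2a4 at each of its replicate spots on the 4 arrays (points; outlier-flagged spots left out), on the log2 scale of the text, with the mean of each array as a line. The spots of each mouse form a narrow band, and the AP bands at 7.04 and 8.09 lie on either side of that of vehicle mouse 2 at 7.61.

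Other genes of glucose uptake and lipid synthesis, named here after their values were seen, varied between single mice too. Slc2a5 encodes the fructose transporter. Its levels were 5.81 and 4.42 with the vehicle and -0.77 and 5.29 with AP, so AP mouse 1 alone was low, and without that mouse the log2 fold change was 0.18 in place of -2.85. Acaca, acetyl-CoA carboxylase and a reported partner of TRIB3, ran in the same order of mice as Slc2a4, at 9.63 and 8.64 with the vehicle and 7.80 and 8.91 with AP. Slc2a1 and Slc2a3, which encode transporters that work without insulin, were higher in both AP-treated mice, at 1.48 and 1.50 against 0.78 and 1.08 and at -1.85 and -1.91 against -2.52 and -2.26. Their log2 fold changes of 0.56 and 0.51 had an adjusted p of 0.80 (limma), and that of Slc2a3 was 0.20 under normexp. Hk2, hexokinase, was 4.43 and 4.94 with AP and 6.09 and 5.01 with the vehicle, and its log2 fold change of -0.86 was -0.33 without vehicle mouse 1.

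Of the Tribbles genes, Trib1 and Trib2 did not share the pattern of Trib3. Trib1 had a level of 1.36 and 2.53 with the vehicle and of 2.01 and 2.21 with AP on its brighter probe (A_52_P573552), and of 0.68, 1.88, 1.29 and 1.54 in the same mice on the other (A_55_P2082806). The AP-treated mice lay between the controls on both probes. Its log2 fold change was 0.16 (standard error 0.44, 95% interval -1 to 1.33), and it was -0.42 without vehicle mouse 1 and 0.75 without vehicle mouse 2. Trib1 and Trib2 were highest in vehicle mouse 2, the mouse highest in the leukocyte and muscle markers, and the part of those cells in the values was not tested.

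Trib2 was lower in both AP-treated mice, at -1.36 and -1.04 against -0.89 and -0.13 with the vehicle (probe A_52_P220810). Vehicle mouse 2 stood above the other 3, and the remaining control lay 0.15 above AP mouse 2. The means were -0.51 ± 0.54 and -1.20 ± 0.22, a log2 fold change of -0.69 (standard error 0.34, 95% interval -1.58 to 0.20) with an adjusted p of 0.80 (limma). Without vehicle mouse 2 it was -0.31, and without vehicle mouse 1 it was -1.07. The second Trib2 probe (A_55_P2082786) was not well above background on any array and was not compared.

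Trib3 had 2.78 and 2.33 with the vehicle and 6.26 and 8.01 after AP, with a log2 fold change of 4.57 (95% interval 2.90 to 6.24) with an adjusted p of 0.80 (limma). Its interval lies wholly above the upper ends of those of Trib1, at 1.33, and Trib2, at 0.20, though the differences between the 3 genes were not tested. Among their partners, Cop1 was 4.03 and 4.01 with AP against 3.88 and 3.65, and Cebpa and Cebpb had log2 fold changes of 0.06 and 0.15 with overlapping groups.

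**Figure D4:**
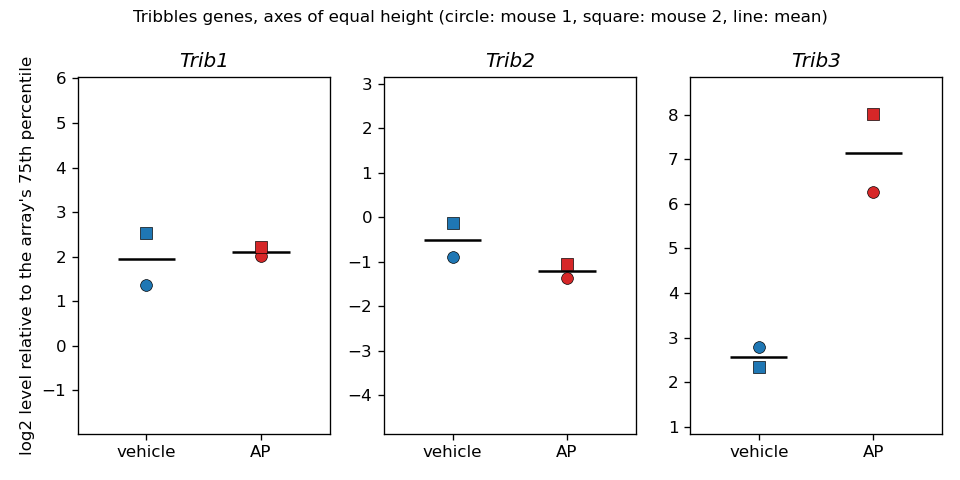
Level of Trib1, Trib2 and Trib3 on the brightest probe in each mouse, on the log2 scale of the text, on axes of equal height (line: mean of 2 mice). The AP mean is 4.57 above the vehicle mean for Trib3, 0.16 above it for Trib1 and 0.69 below it for Trib2.

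The other genes of the pathway were taken from lists of 98 genes, of which 88 had a probe that could be compared. Of these, 0 passed the adjusted threshold (limma). Before adjustment, 7 were higher and 2 lower at a limma p under 0.05, beside 3.78% and 2.26% of all named genes. Trib3 and Ddit3, both in the list of Tribbles partners, were 2 of the 7 that were higher. The study reports both as known ISR genes raised by AP. The count of higher genes thus rests in part on known ISR genes. The groups did not overlap for 19 genes that were higher and 13 that were lower, beside 20.1% and 17.3% of all named genes. The median log2 fold change was 0.05, close to the 0.01 of all named genes. The 18 measured receptor adaptors and brakes had a median of -0.24, and 6 of them were above 0. Without AP mouse 1 the median was -0.11 with 9 above 0, and without AP mouse 2 it was -0.10. Dok1, an adaptor that dampens receptor signals, was the 1 of these under a limma p of 0.05 before adjustment, at -1.62 and -1.45 with AP against -0.86 and -0.88, and its log2 fold change of -0.67 was -0.23 under normexp background correction. Of the 20 genes of PI3K and AKT, 11 were above 0, with a median of 0. The 7 ligands and binding proteins had a median of -0.09, and the 9 Tribbles partners, with Trib3, Atf4 and Ddit3 among them, a median of 0.15, which was 0.37 without vehicle mouse 1 and -0.01 with the authors' table, where the median of all named genes was -0.15. Of the 18 AKT targets and transporters, 11 were above 0, with a median of 0.20, which was 0.06 without vehicle mouse 2 and 0.04 with the authors' table. Pde3b, the phosphodiesterase by which insulin restrains lipolysis, was 5.55 and 5.70 with AP against 5.12 and 4.86, a log2 fold change of 0.63 (adjusted p = 0.80, limma).

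FoxO targets had the highest median of these lists with all mice kept, but not without vehicle mouse 1, and it was level with Tribbles partners at 0.25 without AP mouse 1. The median log2 fold change of the 16 measured genes was 0.42, and 13 were above 0, where 51.4% of named genes were. All 12 muscle markers were above 0 too, with a median of 0.91, but without vehicle mouse 1, 0 were, with a median of -1.26. The part of muscle in the list was not tested. Pck1, which encodes the phosphoenolpyruvate carboxykinase of gluconeogenesis and glyceroneogenesis, was 9.19 and 8.70 with AP against 7.12 and 7.97, a log2 fold change of 1.40. Fbxo32, the ubiquitin ligase atrogin-1, was -0.06 and -0.69 against -1.93 and -1.43, a log2 fold change of 1.31, which was 0.74 under normexp. Btg1, a growth inhibitor, was 5.87 and 5.58 against 4.79 and 5, or 0.82 on the log2 scale, but 0.29 as the mean of all its probes. In each of these, both AP-treated mice were above both controls, with an adjusted p of 0.80 (limma). Gadd45a had 0.53 and 3.29 against -1.27 and -0.49, and its log2 fold change of 2.79 was 1.41 without AP mouse 2. Trim63, a muscle ubiquitin ligase, had -5.80 and -0.70 with the vehicle and 0.73 and -1.48 with AP, and it was not well above background on all 4 arrays. Its log2 fold change of 2.88 was 0.86 under normexp and 0.33 without vehicle mouse 1, the mouse lowest in all 12 muscle markers. G6pc, glucose 6-phosphatase and likewise dim, was lower, at -3.39 and -3.63 with AP against -3.23 and -1.90, a log2 fold change of -0.94 (adjusted p = 0.80, limma) in groups that did not overlap. It and Trim63 were named after their values were seen. Without vehicle mouse 1, 9 of the 16 FoxO targets were above 0 with a median of 0.16, and without vehicle mouse 2, 14 were, with a median of 0.69.

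**Figure D5:**
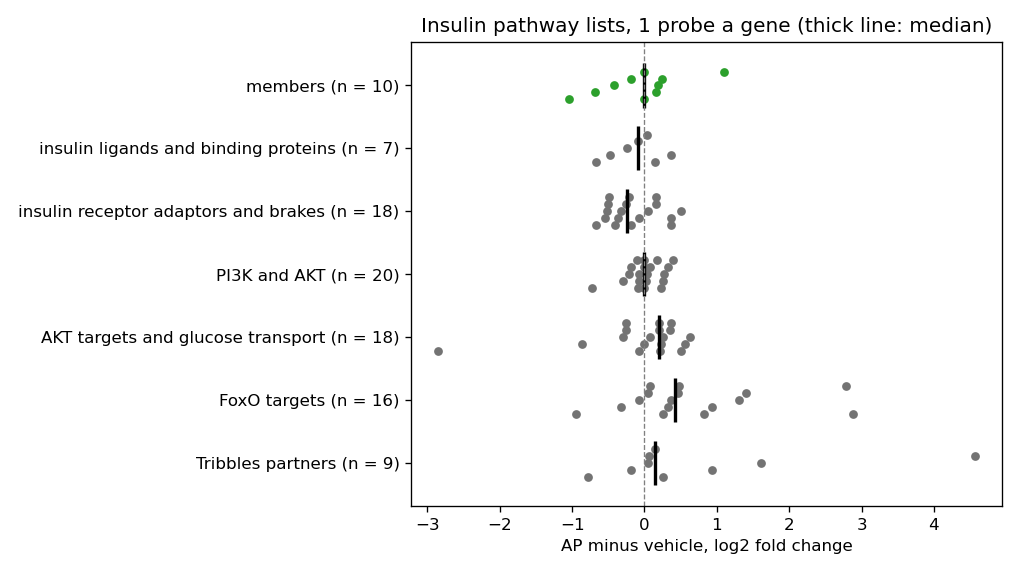
Log2 fold change of AP over vehicle for the 10 members (green) and for the measured genes of 6 lists of the pathway (gray), with 1 probe a gene and the median as a thick line. The medians run from -0.24 for adaptors and brakes to 0.42 for FoxO targets, and the points above 2 on the right are Gadd45a, Trim63 and Trib3.

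The genes whose pattern over the 4 mice was closest to that of Irs2 were searched among 12137 named genes well above background on every array. By the root mean square difference of the levels, each centred on its own mean, the nearest were Pdia5 (0.139), Fbxo21 (0.148), Pck1 (0.151), Fbxo32 (0.155) and Dapk1 (0.157). In all 5, as in Irs2, the order from the lowest mouse to the highest was vehicle mouse 1, vehicle mouse 2, AP mouse 2 and AP mouse 1. Trib3, Ddit3 and Gadd45a had another order, with AP mouse 2 above AP mouse 1. The genes nearest to Pik3r1, a search added after its values were seen, were Tm6sf1 (0.061), Fbxo33 (0.087), Smyd4 (0.109), Bmyc (0.113) and Ptgis (0.123). The same added search gave Pcdh18 for Trib1 (0.008), Nudt22 for Trib2 (0.023), Mcph1 for Foxo1 (0.033) and Eif4e2 for Slc2a4 (0.044). Of the members searched, Irs2 thus had the least close nearest gene. With 4 mice, many genes will share any order, so these are descriptions of likeness.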

How the data were processed

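BAT of 4 Tg mice was hybridized to Agilent SurePrint G3 Mouse arrays. The authors extracted the scans with Agilent Feature Extraction 10.7.1.1 and deposited the intensity of each spot, background-subtracted and not normalized between arrays. The authors also deposited a log2 table of the same arrays. Its array differences correlated with those of the intensities (Pearson's r at least 0.9998), and its normalization and the value on which each probe is centred are unknown. Column medians were -0.284 and -0.16 for vehicle and -0.437 and -0.293 for AP.

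Processed signals were scaled to the 75th percentile of each array on the log2 scale, control spots and outliers were left out, and spots of a probe were averaged. Probes not well above background in any complete group were left out, and limma 3.58.1 (lmFit and eBayes, R 4.3.3) was used for the comparison, with Benjamini-Hochberg adjustment over all probes. The test was tried on simulated data. RefSeq accessions named 26582 probes of 20145 genes. The brightest probe stood for a gene. Builds differ (array mm9), so coordinates are given only for the promoter windows, on GRCm38.p6.

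The members and lists were chosen with earlier results of these data known. Besides the members, the text names pathway genes with a limma p under 0.05, groups that do not overlap and signal on all arrays, Trib3, and the 5 profiles nearest to the member with the largest difference; others were chosen after their values were seen. The alternatives are given in the closing section. Slide and scan were shared, so that block was not run. Normexp used the median spot signal. The number of arrays limits the precision.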

Additional observations from a re-analysis of the deposited data

How the results depend on the processing

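Under 14 alternatives to the processing or the set of mice, 0 members and 0 other pathway genes passed the adjusted threshold (limma or, for the methods' t-test, that test). The same held for all probes under 13 of these, since averaging a gene's probes leaves no test by probe, and the crossed pairing, added after the data were seen, gave 0 too. With all mice kept and dim probes left out, 1226 to 1827 probes were under 0.05 before adjustment, against 1515 of 24975 as reported. Comparing every probe gave 2613 of 55681. Where no probe passes, this says nothing of stability. Irs2, Pik3r1, Trib2, Insr and Trib3 kept their sign in every alternative run. With all mice kept, Irs2 lay between 0.94 and 1.18 on the log2 scale, and the range was from -1.20 to -0.90 for Pik3r1, from -0.85 to -0.49 for Trib2 and from 0.02 to 0.40 for Insr. The low end of each range came from the authors' table, where the median of all named genes was -0.15.

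Scaling to the median of each array and the authors' table moved the median of all probes from -0.012 to 0.073 and -0.174, and members are read relative to that shift. Comparing every probe gave 0.094. The median of the members was -0.07 under normexp, 0.07 with the median of each array, -0.17 with the authors' table and 0.04 when a gene's probes were averaged, and that of the other pathway genes 0.14 with the median of each array and -0.11 with the authors' table. Leaving out a mouse gave -0.04 to 0.04 for the former and 0.02 to 0.08 for the latter. Signs turned for genes near 0: Igf1r (0.07) and Akt2 (0.07) with the median of each array, and Akt2 with quantile normalization (0.02) and averaged probes (0.08). Scaling to the median moves the log2 fold change of every probe by the same amount. Leaving out a mouse gave a range of -0.04 to 0.01 for Igf1r, -0.12 to 0.10 for Akt2, -0.42 to 0.06 for Irs1, -0.28 to 0.76 for Foxo1, -0.94 to 0.11 for Slc2a4 and -0.42 to 0.75 for Trib1. The lone mouse of a group is then taken to vary like the others. Apart from the shift by scaling, the cause of each change was not tested.

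Mice of different groups have a replicate number in common and no stated pairing, and their deviations from the group means had a correlation of -0.129 over probes. The replicate block left 0 probes past the threshold, 1226 were under 0.05 before adjustment, and the unadjusted p of Irs2 was 0.0626 in place of 0.0364, so that it was no longer under 0.05. Pik3r1 had 0.0155 in place of 0.0111 (limma). In a balanced design the block cannot move a fold change. The crossed pairing gave 1566 probes under 0.05 before adjustment, with an unadjusted p of 0.0106 for Irs2 and 0.0222 for Pik3r1 (limma). For Irs2 the 2 pairings thus moved the p in opposite directions. The second Trib2 probe was not well above background on any array, so only 1 probe bears on that gene.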
